A study of Homo sapiens with 12 samples.

Results

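The data described here are 5745 regions of RNA at the 5' ends of protein-coding genes that were enriched by an antibody against N4-acetylcytidine (ac4C) in SW620 cells, which come from a metastasis of a human colorectal cancer. In this assay, acRIP-seq, RNA is broken into short pieces, the pieces bound by the antibody are sequenced, and stretches with an excess of reads are called as peaks. The authors deposited 1 list of mRNA peaks for each library. The 6 lists were pooled, and overlapping peaks (1 bp or more, same strand) were merged into 41755 regions. A region was kept when its midpoint lay inside a protein-coding gene of GRCh38 on the same strand, at most 500 bp from the annotated start of that gene and more than 1000 bp from its other end. The regions lay in 5734 genes, 57 of them in 2 genes at once, and 70 genes held 2 such regions. No score and no group entered this choice, but for 1088 of the regions the strand of the gene was itself taken from the peaks. For comparison, 31355 regions lay in the interior of genes, 2957 within 1000 bp of a gene's 3' end, 68 near both ends of a short gene and 1630 outside protein-coding genes or antisense to them.

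There were 2 groups of 3 libraries each. The cells of the first carried a control shRNA (shControl) and those of the second an shRNA against NAT10 (shNAT10). Both were SW620 cells transduced with lentivirus and selected with puromycin, so transduction and selection were common to the groups. The labels number the libraries of each group 1 to 3 and do not say whether they came from separate cultures, so the tests below measure the spread between these libraries, which may be technical. Input libraries of the same design were not used here, and whether peaks were called against them is not stated. Each peak has a position, a strand, a width and a score. The score starts at 50 and many peaks sit at 3100 or just above, so it was used only as a rank, the percentile of a peak among all peaks of its library, with 100 the highest and all peaks from 3100 upward tied. The lists give no read counts and the depth is unknown. The lists held 17877 to 28752 peaks, and the longest, that of shNAT10 replicate 1, stood apart from the other 5, which ended at 22619.

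ac4C is a modified cytidine that NAT10, an RNA acetyltransferase of the nucleolus and nucleus, places on ribosomal RNA, transfer RNA and, by reports from antibody enrichment, messenger RNA. The 5' end of a messenger RNA carries the cap, the leader that the small ribosomal subunit scans, and often the start codon, and promoters of human genes are rich in C and G around it. The gene table used here holds neither exons nor reading frames, so a region at a gene start can hold leader, coding sequence or both.

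The sequence at some of these gene starts is shown because ac4C is a modified cytidine. The first 30 transcribed bases at the annotated start of 8 genes were read from RefSeq (GRCh38.p14) and are given with cytidines in capitals. SLC12A2 (chr5:128083766-128083795, plus strand), YY1 (chr14:100239144-100239173, plus strand) and CDX2 (chr13:27969286-27969315, minus strand) were among the strongest regions in every library. The regions holding the starts of CLEC11A (chr19:50723364-50723393, plus strand), SPTAN1 (chr9:128552587-128552616, plus strand) and PTPRZ1 (chr7:121873161-121873190, plus strand) were found in the control libraries alone. Those holding the starts of CSTF2 (chrX:100820391-100820420, plus strand) and ERBB2 (chr17:39688094-39688123, plus strand) were found in the knockdown libraries alone. All 8 stretches lay inside their regions.
SLC12A2: aCaCtCgCgCgCtCgCtCggCtgCCggtgg
YY1: CtCCCtCtgCCttCCttCCCCaCggCCggC
CDX2: aatCaCggaaggCCgCCggCCtggggCtCC
CLEC11A: agagaCgaggagaggaaCaggaagagagaa
SPTAN1: gCCaCtaCCCgCtgCggagtgaaCggtgtg
PTPRZ1: agaCCgCggCCgCCgCagCCggCgaaagag
CSTF2: gCaCCggaagCCgaCtCaaCagagCtatgg
ERBB2: gttCtttattCtaCtCtCCgCtgaagtCCa

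The number of cytidines in these 30 bases ran from 2 in CLEC11A to 17 in YY1, and it was 12 in SLC12A2, 11 in CDX2 and PTPRZ1, and 9 in SPTAN1, CSTF2 and ERBB2. Over all 13820 genes with such a window the median was 9, with quartiles of 7 and 11. The CLEC11A start, with 2 cytidines, was among the regions at the score limit in all 3 control libraries. A run of 4 CNN triplets (N is any base), searched on the transcribed strand because RNA was precipitated, occurred in the shown bases of YY1 and PTPRZ1 and in 19.1% of the 13820 windows. A comparison of base composition or motifs over all the regions was void, since 4362 of the 5734 genes (76.1%) had a window at their annotated start and at least 80% were needed.

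Regions crowded toward the gene start, by distances in genome coordinates that can span introns. The gene table holds no exons, so the length of first exons was not taken into account. The midpoint lay a median of 123 bp inside the gene, with quartiles of 62 and 234.5 bp, and 1242 regions had it between 50 and 100 bp, against 193 between 450 and 500 bp and 181 in the next 50 bp outside the limit. The annotated start itself lay inside 3556 regions (61.9%). The upstream edge fell exactly on the annotated first base in 431 regions (7.50%) and within 50 bp of it in 62.1%, with a median 5 bp before it. The downstream edge fell a median of 270 bp into the gene. Of the 5745 regions, 19 began more than 500 bp before the start, among them EPHX3, with its upstream edge at -1437 bp from the start. Just inside the limit lay TMC7 at 500 bp, SEMA6C at 499.5 bp and IFFO2 at 499 bp, and just outside it FBXO3, HIPK1 and NIPSNAP2, each at 500.5 bp.

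The edges of these peaks recurred from library to library. In 2420 of the regions found in all 6 libraries, each library gave exactly 1 peak. All 6 peaks ended at the same downstream base in 93.7% of these and began at the same upstream base in 78.3%. In the interior the order was the other way round, with 83.6% sharing the downstream edge and 90.8% the upstream edge over 5373 regions. At 3' ends 42.7% of 478 regions shared the downstream edge. These shares are descriptions and were not tested.

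Regions at gene 5' ends were found in all 6 libraries more often than regions in the interior or at 3' ends of genes. Of the 5745 regions, 2437 (42.4%) were found in all 6 libraries and 1147 (20.0%) in 1 only. In the interior 18.2% of regions were found in all 6 and 42.3% in 1, and at 3' ends 17.9% and 39.9%. Of the 68 regions near both ends of a gene 51.5% were found in all 6, a higher share than at 5' ends, and of the 1630 outside genes or antisense 29.4%. Each library held between 60.7% (shNAT10 replicate 2) and 78.1% (shNAT10 replicate 1) of the 5'-end regions, against 38.9% to 65.5% of the interior regions. The mean difference was 20.7 percentage points (SD 4.49 over the 6 libraries), and the 5'-end value was the higher in 6 of 6 libraries (exact two-sided sign-flip test, p = 0.03125, the smallest 6 libraries can give, and 0.0547 after Benjamini-Hochberg adjustment over the 7 tests of this family, so that it misses 0.05). Against 3'-end regions the difference was 19.3 points (SD 4.06), again in 6 of 6 libraries and with the same exact p of 0.03125 and 0.0547 adjusted.

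Wider regions recurred more often, and 5'-end regions were found in all 6 libraries more often than interior regions at each width. Among regions over 100 and up to 200 bp wide, 31.5% of 1417 at 5' ends and 16.4% of 11979 in the interior were found in all 6. Over 200 and up to 300 bp the shares were 40.6% of 1467 and 18.4% of 4432. Over 300 and up to 500 bp they were 52.9% of 1507 and 26.5% of 2571. Among interior regions, 1778 (5.67%) lay within 500 bp of a start listed in the promoter table on the same strand, and 31.5% of these were found in all 6 libraries against 17.4% of the rest. These shares carry no test.

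Peaks at 5' ends had a larger median width and a higher score rank than interior peaks in the same library. The median width per library was 265 to 296 bp at 5' ends and 156 to 180 bp in the interior, a mean difference of 111 bp (SD 2.93) in 6 of 6 libraries (exact two-sided sign-flip test, p = 0.03125, 0.0547 adjusted). The difference in mean width was -56.3 bp, with the opposite sign (exact sign-flip p = 0.09375), and 5.89% to 10.8% of interior peaks and 0.755% to 1.10% of 5'-end peaks were over 1000 bp long. Widths are in genome coordinates and can span introns, and the rule itself admits few wide regions, because a region that starts at the gene start and is over 1000 bp long has its midpoint past the limit. The median score percentile was 59.8 to 69.6 at 5' ends, 44.1 to 45.8 in the interior and 49.3 to 57.0 at 3' ends. The 5'-end median exceeded the interior one by 18.9 points (SD 4.34) in 6 of 6 libraries (exact two-sided sign-flip test, p = 0.03125, 0.0547 adjusted). The difference was smaller among regions found in all 6 libraries below the score limit, ranked among shared regions. There it was 12.9, 10.1 and 0.957 points in shControl replicates 1, 2 and 3. In shNAT10 replicates 1, 2 and 3 it was 7.98, 1.94 and 1.42 points, and these differences were not tested. Between 11.4% and 24.2% of the 5'-end peaks of a library sat at the score limit, against 6.10% to 11.6% of interior peaks and 9.05% to 17.7% of 3'-end peaks. The 3'-end share was above the 5'-end share in 3 libraries, shControl replicate 3 (17.7% against 15.6%) and shNAT10 replicates 2 (16.3% against 14.5%) and 3 (16.9% against 15.9%).

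Of the regions found in all 6 libraries, 291 were at the score limit in every one, and 10 were taken from these by width. EPHX3, an epoxide hydrolase, had the widest (median 2927 bp), followed by CDK13, a kinase of the RNA polymerase II tail (2207 bp). TLE3, a Groucho-family corepressor, had a median of 1282 bp, and TTI2, a co-chaperone of PI3K-related kinases, one of 1140 bp. MTCL2, a microtubule-crosslinking protein, measured 1029 bp in each of the 6 libraries. The homeobox factor CDX2, which specifies intestinal epithelium, had a region of 963 to 1113 bp. FSCN1, which bundles actin (946 bp), SLC12A2, a sodium, potassium and chloride cotransporter (945 bp), YY1, a zinc-finger factor (939 bp), and EN2, a homeobox factor (934 bp), had the same width in every library. The peaks of SLC12A2 and EN2 began exactly at the annotated start. MYL5, a myosin light chain, C1orf122 and EGLN1, the prolyl hydroxylase that acts on hypoxia-inducible factors, completed the 5 widest, with median widths of 2262, 1754 and 1613 bp. EGLN1 stood at the limit in shNAT10 replicate 1 alone, with percentiles of 81.2, 84.6 and 77.6 in the controls and 92.9, 88.4 and 86.2 after knockdown.

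Genes with a 5'-end region made up 28.6% of the 20050 protein-coding genes of the table and 47.3% of the 12132 genes with any region, and 2457 (12.3%) had one in all 6 libraries. Such genes had a median of 3 regions in all, 1079 of them (18.8%) had no other, and their median length was 32857 bp against 29544 bp for other genes with a region. Groups of genes differed widely in this share. Of 28 UBR and HECT ubiquitin ligases, 21 had a 5'-end region and 12 had it in all 6 libraries, among them UBR4, with percentiles of 62.3, 76.0 and 64.4 in the controls and 83.8, 69.9 and 69.1 after knockdown, and HUWE1, UBE3A and SMURF1. At the other end, 5 of 79 cytosolic ribosomal proteins had a 5'-end region and 0 had it in all 6 libraries. RPL19 and RPS15 had one in 2 libraries and RPS10 in 1. Most of the 79 had no peak anywhere, since 20 had any region.

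Of 10 genes for NAT10, its adaptor THUMPD1 and the proteins of snoRNPs, the particles that modify ribosomal RNA, 7 had a 5'-end region and 3 had it in all 6 libraries. FBL, the methyltransferase of box C/D particles, was at the score limit in all 6. NOP58, of the same particle, ran from 44.1 to 85.0, and GAR1, of the box H/ACA particle, from 72.5 to 89.3. THUMPD1 had a peak in 3 libraries, NOP10 in 2 and NHP2 in 1. For NAT10 itself, the knocked-down gene, the 5'-end region was found in 1 library, shControl replicate 3, at percentile 43.0. A peak list does not give the level of a transcript, so the knockdown was not checked here. The paper reports NAT10 knockdown in SW620 cells by RT-qPCR and western blotting.

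Growth factor signaling genes often carried a 5'-end region. Among list genes with any region, 66.7% of the ERBB list and 72.7% of the RAS list had one, against 47.3% of all such genes. Of 20 genes of the ERBB receptors, their ligands and feedback regulators, 12 had one and 8 had it in all 6 libraries. The ligands AREG, EREG, HBEGF and TGFA all had it in every library, HBEGF at percentiles of 65.2, 77.4 and 70.7 in the controls and 79.3, 64.6 and 77.8 after knockdown. Among receptors, ERBB3 had it in all 6 with percentiles of 42.7, 44.1 and 64.7 in the controls and 83.8, 70.6 and 63.9 after knockdown, ranges that overlap. EGFR had it in 4 libraries, at 57.9 and 42.1 in control replicates 1 and 3 and at 33.2 and 1.01 in knockdown replicates 1 and 2. ERBB2 had it in the 3 knockdown libraries alone, while another region of the gene was found in all 6. The ubiquitin ligase CBL, the membrane protein LRIG2 and the signaling suppressor SOCS5 had it in all 6. Of 23 genes of the RAS, RAF, MEK and ERK cascade, 16 had one and 8 had it in all 6, among them BRAF, MAP2K1, MAP2K2, NF1, RPS6KA3 and DUSP5. MAP2K1 and MAP2K2, which encode MEK kinases, were at the limit in all 6. Among the Sprouty and DUSP feedback inhibitors of the list, DUSP5 had it in 6 libraries, SPRY4 in 4, SPRY2 in 2, and SPRY1, DUSP4 and DUSP6 in 1, while the related SPRED1 and SPRED2 had no 5'-end region.

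Downstream of these, 13 of 31 PI3K, AKT and mTOR genes had a 5'-end region and 8 had it in all 6 libraries. MTOR had a region of 63 bp, at 45.8, 72.8 and 47.7 in the controls and 76.1, 33.8 and 25.8 after knockdown. RPS6KB1, the S6 kinase, was at the score limit throughout. Of 36 WNT and beta-catenin genes, 15 had one and 6 had it in all 6, among them the coreceptor LRP6, at the limit in every library, the receptor-degrading ligase ZNRF3 and DVL1, a cytoplasmic transducer. Of 28 G1 cyclins, CDKs, RB and E2F genes, 15 had one and 8 had it in all 6. CDKN2B, an inhibitor of G1 kinases, was at the limit throughout. The E2F factors E2F1, E2F3, E2F5, E2F6 and E2F7 had it in all 6, and CCND1, the G1 cyclin, in 3. Of 33 immediate early and stress-response factors, 15 had one and 7 had it in all 6, with FOSL1, HSF1 and MAX at the limit in every library and FOS found in 2. Of 44 SOX, FOX, GATA and HOX factors, 17 had one and 3 had it in all 6, namely FOXK1, FOXP4 and HOXC10.

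Genes of protein synthesis and folding were mixed. Of 38 translation initiation factors, 11 had a 5'-end region and 6 had it in all 6 libraries. EIF5B, which joins the ribosomal subunits, EIF2S2, a subunit of the factor that brings the initiator tRNA, EIF4EBP2, which binds the cap-binding protein, and PABPC1, the poly(A)-binding protein, were at the score limit in all 6. EIF4E, the cap-binding protein itself, had it in 5 libraries at percentiles of 42.3 to 61.2. Of 41 aminoacyl-tRNA synthetase genes, 17 had one and 4 had it in all 6, with GARS1 at the limit in 5 libraries. Of 52 chaperones, 24 had one and 14 had it in all 6, among them HSP90AA1 at 31.2 to 63.0 and CDC37, its kinase-specific partner, at the limit. HSPA1A and HSPA1B also had it in all 6, but they are near-identical copies and reads could be split between them. Of 45 proteasome subunits and assembly factors, 10 had one and 6 had it in all 6. Of 37 SR proteins and hnRNPs, which act in splicing, 8 had one and 7 had it in all 6. Of 33 histone lysine methyltransferases, 15 had one and 7 had it in all 6, among them KMT2A, KMT2C, DOT1L and NSD2.

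Over the 16 lists, 221 genes had a 5'-end region and 107 (48.4%) had it in all 6 libraries, near the 42.4% of all 5'-end regions. Among list genes with any region, the share with one at the 5' end was often near the 47.3% of all such genes. It was 50% for PI3K, AKT and mTOR, 44.1% for WNT, 45.8% for initiation factors and 44.7% for SOX, FOX, GATA and HOX factors. It was lower for ribosomal proteins (25%), SR proteins and hnRNPs (30.8%) and proteasome subunits (37.0%). It was higher for the ERBB list (66.7%), G1 cyclins, CDKs, RB and E2F (68.2%) and the RAS list (72.7%). The highest shares were 77.8% for NAT10, THUMPD1 and snoRNP proteins and 80.8% for UBR and HECT ligases. These shares were not tested. Markers of the cell type were found in part. Of 14 markers of intestinal epithelium, 10 had a peak and 6 had one in all 6 libraries, and 7 had a 5'-end region, among them CDX2, EPCAM, CDH1 and VIL1. CDX1, KRT18, KRT20 and GPA33 had no peak. Of 3 lymphocyte markers, PTPRC and CD3E among them, none had a peak. Of 3 fibroblast markers COL1A1 had peaks in 3 libraries, and COL1A2 and PDGFRA had none. Of 2 endothelial markers VWF had peaks in 3 libraries and PECAM1 had none. Neither COL1A1 nor VWF had a peak at the 5' end. A gene without a peak can still be expressed.

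Knockdown of NAT10 left the number of 5'-end peaks within the spread between libraries. The control libraries held 3759, 4085 and 3772 such peaks and the knockdown libraries 4505, 3492 and 3641. The highest and the lowest value were both in the knockdown group. The means were 3872 ± 185 and 3879 ± 547 (SD, n = 3 each; exact two-sided permutation test, p = 1, where 3 against 3 cannot go below 0.1). Such peaks made up 20.6%, 18.1% and 18.8% of all peaks in the control libraries. In the knockdown libraries they made up 15.7%, 19.5% and 19.1%, and the groups overlapped (19.2 ± 1.31% and 18.1 ± 2.12%, exact permutation p = 0.6). The low share belonged to shNAT10 replicate 1, the longest list. The difference in share, knockdown minus control, was -1.05 points with it and 0.161 points without it. Without it the difference in the mean number of 5'-end peaks was -307 (exact permutation p = 0.1, the smallest 2 against 3 can give). Of the 5'-end regions with a peak in that library, 480 (10.7%) were seen in no other, against 1.38% to 6.53% in the other 5 libraries.

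**Figure D1:**
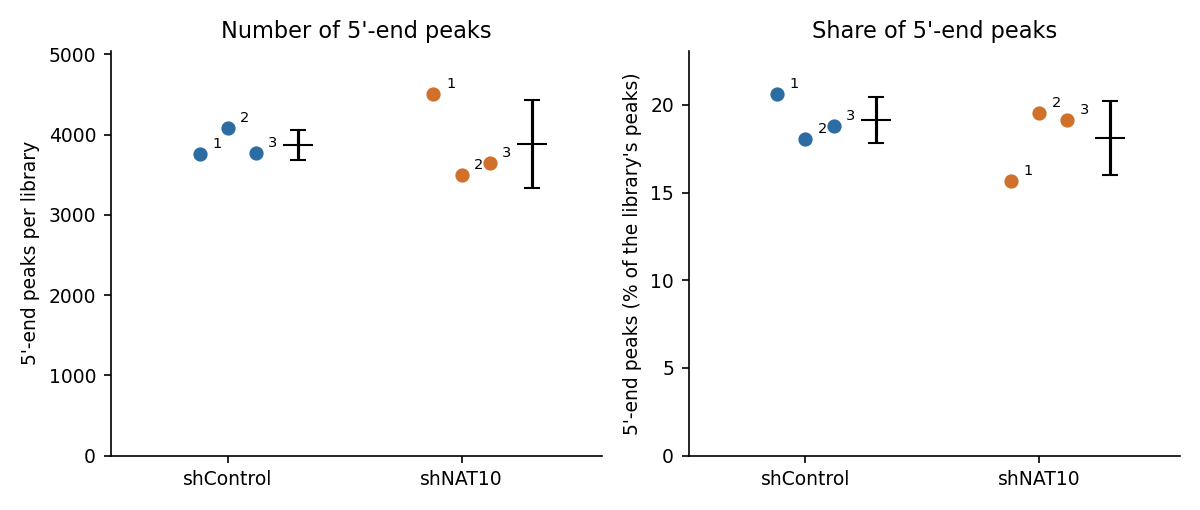
Number of 5'-end peaks in each library (left) and their share of the library's peaks in percent (right), for 3 shControl (blue) and 3 shNAT10 (orange) libraries numbered by replicate; bars give mean and SD. The groups overlap in both panels, and shNAT10 replicate 1 has the most 5'-end peaks (4505) and the lowest share (15.7%).

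Few 5'-end regions separated the groups fully. A peak in all 3 control libraries and no knockdown library was found for 27 regions (0.470%), against 142 of all 41755 regions (0.34%). The reverse pattern was found for 29 (0.505%), against 342 of all regions (0.819%). The first share lay above and the second below that of all regions, and neither difference was tested. At 5' ends the directions were about even, while in the interior there were 93 control-only (0.297%) and 274 knockdown-only (0.874%) regions and at 3' ends 14 and 31. Whether this balance differs between classes was not tested. It moved with the lists used. When every list was cut to its 17877 highest-scored peaks, 5' ends gave 36 control-only (0.680%) and 22 knockdown-only (0.416%) regions. The interior then gave 95 (0.393%) and 191 (0.790%). Without shNAT10 replicate 1, where 2 knockdown libraries decide, 5' ends gave 121 (2.3%) and 60 (1.1%) and the interior 343 (1.3%) and 525 (2.1%). At a difference of at least 2 libraries, 285 5'-end regions (4.96%) lay toward control and 232 (4.04%) toward knockdown. Over all regions the counts were 1700 (4.07%) and 2472 (5.92%). Leaving out any library loosens the criterion, and the total of 56 then became 116, 146 and 155 without control replicates 1, 2 and 3, and 181, 106 and 95 without knockdown replicates 1, 2 and 3. By gene, 26 had 5'-end peaks in the control libraries alone and 29 in the knockdown libraries alone, against 40 (0.33%) and 44 (0.363%) of the 12132 genes with a region anywhere, counted over all their regions.

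The control-only regions included 2 at the score limit in every control library. CLEC11A (chr19:50723329-50723672), a secreted growth factor, had a peak of 344 bp in each, and DAPK3 (chr19:3970921-3971070), a death-associated kinase, one of 150 bp. ANKRD18A (chr9:38620080-38620660), which has a close paralog, had percentiles of 77.9, 81.0 and 73.4, and SPTAN1 (chr9:128552558-128552696), the alpha-II spectrin of the membrane skeleton, of 74.8, 84.0 and 71.0. PTPRZ1, a receptor tyrosine phosphatase, stood at 52.3, 53.1 and 57.9, and no knockdown library had a peak anywhere in the gene. CHCHD5, a mitochondrial protein, stood at 65.3, 49.5 and 60.5. WDR74, which acts in ribosome assembly, ranged from 43.3 in replicate 2 to the limit in replicate 1, and GSTM4, a glutathione transferase with close paralogs, stood at 48.5, 42.6 and 57.0. No knockdown library had a peak over any of these 8 regions. CLEC11A, DAPK3, SPTAN1 and GSTM4 had another region in the gene that was found in all 6 libraries.

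The knockdown-only regions ranked lower. NR1H2 (chr19:50376473-50376826), the oxysterol receptor LXR-beta, had percentiles of 92.9, 66.5 and 75.2, the first at the score limit. BNIP3L, a mitophagy receptor, stood at 69.8, 64.5 and 60.3. A region of 297 bp shared by HYAL3, of the hyaluronidase family, and NAA80, the acetyltransferase of actin, stood at 58.5, 67.3 and 72.9. CSTF2 (chrX:100820359-100820474), a subunit of the cleavage stimulation factor in 3' end processing, stood at 77.1, 52.7 and 63.2, and the same gene had a control-only region further downstream (chrX:100820536-100820648), at 63.8, 22.4 and 30.9 in the control libraries. LLPH, a nucleolar protein, had 61.7, 40.6 and 51.5, NEK3, a kinase, 68.3, 40.1 and 52.8, and RYBP, of a Polycomb complex, 62.3, 48.4 and 38.7. EID3, of the SMC5/6 complex, had 51.0, 26.2 and 23.0, with a peak of 128 bp in replicate 1 and of 857 bp in the others. Replicate 1 had the highest of the 3 percentiles in NR1H2, BNIP3L, CSTF2, LLPH, NEK3, RYBP and EID3. ERBB2 (chr17:39687914-39688278) had percentiles of 48.8, 8.21 and 21.2 and was the only gene of the 16 lists in either set. The ERBB2 gene held 6 regions. ERBB2, NR1H2, HYAL3, NAA80 and LLPH had another region in the gene that was found in all 6 libraries.

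Many of these regions were low in the lists that held them. All 3 percentiles were under 50 in 7 of the 27 control-only and 18 of the 29 knockdown-only regions, and all 3 were at 50 or above in 5 and 4. The median over regions of the lowest percentile was 20.8 in control-only and 17.4 in knockdown-only regions, against 37.0 over all 5'-end regions. The peak had exactly the same width in its 3 libraries in 17 and 16 of them. The gene held another region for 22 of the control-only and 22 of the knockdown-only regions, and for 8 of each the gene had a region in all 6 libraries.

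In regions shared by all 6 libraries no shift of score rank passed the test. Of 9195 shared regions, 3441 were at the score limit in at least 1 library and were left out, and the percentile was taken again among the shared regions. Of the 5754 regions left, 1503 were at 5' ends. None of the 1503 passed an adjusted p of 0.05 in limma, nor did any of the 5754 (0%), and the smallest adjusted p at a 5' end was 0.204. At an unadjusted p under 0.05 there were 126 5'-end regions (8.38%), 39 higher and 87 lower in knockdown, against 474 of all regions (8.24%). The median shift, knockdown minus control, was -3.03 percentile points at 5' ends and -0.93 points over all regions, and 60.2% of 5'-end and 53.0% of all regions were lower. Without control replicate 1 the 5'-end median shift was -1.28 points, without control replicate 2 it was -2.15 and without control replicate 3 it was -5.32.

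The 3 regions with the smallest p in each direction are described here. They were picked by that p among all 5'-end regions tested, so the separation of their groups comes from the choice. ARHGAP26, a GTPase-activating protein, stood at 4.24, 9.97 and 6.49 among shared regions in control and 64.5, 55.6 and 54.0 in knockdown libraries, a shift of 51.1 points (SE 8.89, limma adjusted p = 0.204). MRPL37, of the mitochondrial ribosome, stood at 6.99, 2.10 and 3.37 and at 43.6, 46.9 and 25.2. FHOD3, a formin that assembles actin, stood at 47.2, 16.7 and 17.7 and at 62.7, 71.8 and 59.6. In the other direction CNTNAP3C, which has near-identical paralogs between which reads could be split, stood at 46.6, 65.6 and 64.6 in the controls and 15.1, 5.07 and 17.7 after knockdown. NBEA, a neuronal trafficking protein, stood at 71.9, 58.5 and 55.9 and at 2.64, 21.0 and 28.5. WDFY1, a protein of endosomes, stood at 70.0, 62.7 and 58.3 and at 29.8, 25.8 and 21.6. Their limma adjusted p-values ran from 0.204 to 0.351, so none is called.

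The rank of 5'-end regions varied more between libraries of 1 group than between the group means. Among the shared regions below the score limit, the median percentile at 5' ends was 42.1, 40.1 and 32.6 in the controls and 37.8, 33.5 and 32.8 after knockdown (38.2 ± 5.02 and 34.7 ± 2.71, SD, n = 3 each; exact two-sided permutation test, p = 0.4). At 3' ends, over 260 regions, it was 32.0, 29.6 and 39.4 in the controls and 32.6, 36.7 and 36.9 after knockdown. Control replicates 1 and 2 and knockdown replicate 1 thus had the higher median at 5' ends, by 10.1, 10.5 and 5.19 points, while the same difference, 5' end minus 3' end, was -6.86, -3.14 and -4.17 points in control replicate 3 and knockdown replicates 2 and 3. The 2 sets cut across the groups. Interior regions stayed between 29.2 and 31.6 in all 6 libraries. They made up most of the shared regions that were ranked (5715 of 9195), which limits how far their median can move. The part of this pattern in the group comparison was not tested.

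**Figure D2:**
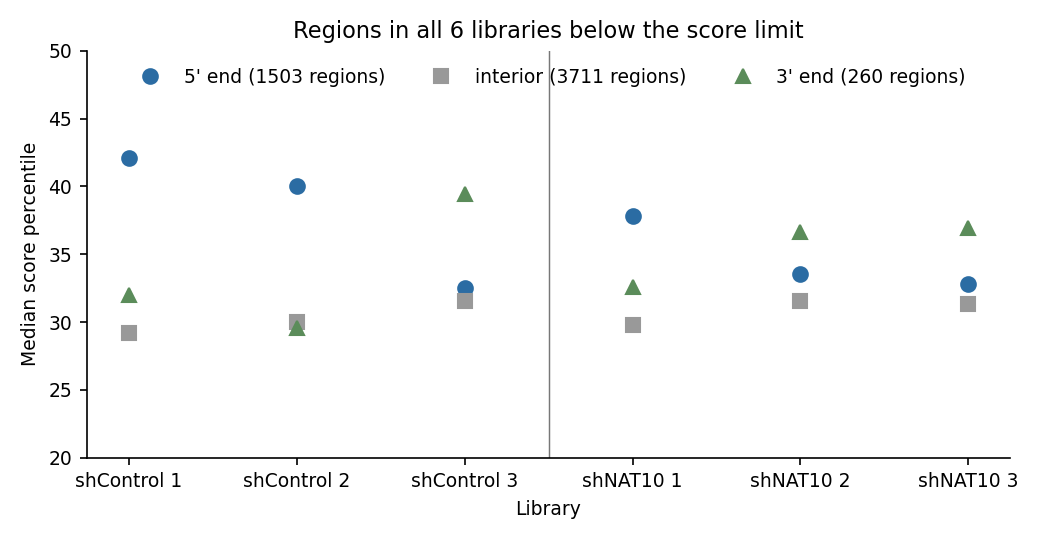
Median score percentile (y axis, drawn from 20 to 50) in each library (x axis) of the regions found in all 6 libraries below the score limit, for 1503 5'-end, 3711 interior and 260 3'-end regions. The 5'-end median lies above the 3'-end median in shControl replicates 1 and 2 and shNAT10 replicate 1 and below it in the other 3 libraries.

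Of the 10 genes that the study draws from the overlap of its data sets, PTPRZ1 and ABI2 had a 5'-end region. The paper describes these 10 as changed in mRNA as well as in ac4C. A lost peak in them therefore cannot be told apart from a lower transcript level here. ABI2, of the actin-regulating WAVE complex, had it in 5 libraries, at 88.3, 87.3 and the score limit in control and at the limit in knockdown replicates 1 and 2. ERRFI1, a feedback inhibitor of EGFR, had 2 regions, with midpoints 11189 and 10715.5 bp from its annotated start, found in 4 libraries and 1 library. These distances are in genome coordinates and can span introns. The paper reports ERRFI1 peaks in the 5' untranslated and coding parts of the mRNA and also gives genome coordinates for them. Neither was compared with these 2 regions here. PKIB, GABRE, PRSS23, SLC44A2, RAC2 and EPB41L1 had regions elsewhere in the gene and ICAM2 had none.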

How the data were processed

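The 6 immunoprecipitation libraries were used. Per the labels, total RNA was fragmented and precipitated with an ac4C kit, and the authors deposited for each library a list of mRNA peaks with a score, with no replicates pooled. The peak names are those of MACS. Its version, the aligner and the meaning of the score are not given in the sources used here, and GRCh38 comes from the submitters' processing notes. Lists limited to mRNA can leave out other RNA, and the score limit removes order among the highest peaks.

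Peaks were merged on each strand over at least 1 bp. Gene spans came from the GRCh38.p14 gene table, which gives no strand. It was taken from the promoter table for 15843 of 20050 protein-coding genes and, for 2306, from the strand of at least 90% of the peaks in the span, which touches 1088 of the regions. Where both were known they were equal for 9419 of 9610 genes (98.0%). For 1901 genes no strand was known, and 88 of these held a peak.

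The members, gene lists and tests were chosen with earlier results of these data known. The score limit was taken as 3100, where the ties lie, in place of the highest score listed (3233). Libraries were compared by exact permutation of 3 against 3, classes by exact sign flips over 6 libraries, and shared regions by limma 3.58.1 on percentiles, with Benjamini-Hochberg adjustment over all regions and a threshold of 0.05. A library's highest peak stood for a region. The test of library medians of shared regions and the class counts under equal list lengths were added after the data were seen. Named were the 10 regions with the highest lowest percentile in all 6 libraries and the 5 widest, per direction the 8 group-only regions with the highest lowest percentile and the 3 shared regions with the smallest p, the 3 nearest each side of the distance limit, list genes, and the 10 genes the study names. Some items that this rule selects are left out. Code was tested on simulated data. The alternatives were the top 50% of scores, equal numbers of peaks, limits of 250 and 1000 bp, regions in 1 gene only, stricter merging or coverage, a difference of 2 libraries, log2 scores, a replicate block, each library left out and, added after seeing the data, genes with a strand in the table only. Python 3.11.15, numpy 2.4.6, pandas 2.3.3, scipy 1.17.1 and R 4.3.3 were used.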

Additional observations from a re-analysis of the deposited data

How the results depend on the processing

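With 3 libraries in each group an exact permutation test cannot go below 0.1, and with depth unknown the absence of a peak cannot be told from too few reads. Differences are given as knockdown minus control, or 5' end minus the other class. The difference in 5'-end peaks per library, 7.33, was within the spread and changed sign with the top 50% of scores (-11.7), equal numbers of peaks (-105), a limit of 250 bp (-17.7) and genes with a strand in the table only (-5). It ran from -307 to 202 with 1 library left out, and the difference in share from -1.76 to 0.161 points. The 56 group-only regions and 55 genes became 34 and 34 with the top 50% of scores and 517 and 516 at a difference of 2 libraries, and 95 to 181 and 96 to 172 with 1 library left out, which by construction loosens the criterion. With 5 libraries the smallest exact sign-flip p is 0.0625, so each class comparison then missed 0.05: detection exceeded the interior by 18.2 to 20.2 points and 3' ends by 17.3 to 19.0 points, the median width by 110.2 to 111.9 bp and the score percentile by 17.8 to 19.8 points. With the mean in place of the median the width difference was -56.3 bp. Larger changes came with the top 50% of scores, where detection exceeded the interior by 11.8 points and 3' ends by 10.8 points. There the score percentile was higher than in the interior by 7.39 points and the median width by 96.6 bp. At a limit of 250 bp the difference in median width was 76.2 bp. No shared 5'-end region was called by limma under any of its 13 alternatives.

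Same-numbered libraries deviated together with correlations of 0.041, -0.046 and 0.069, so they share a number only. With a replicate block the differences were unchanged at 7.33 peaks, -1.05 points of share and -3.54 points of median percentile (exact sign-flip p of 1, 1 and 0.5), and limma again called 0 regions. Of the 255 alternative values in all, those for single regions cover the presence of 17 regions and the percentile shift of 6. None of these changed direction, and 8 values of presence moved by 1 or 2 libraries. The other named regions were not recomputed. The planned share of motifs in promoter windows was not run over the set, because too few genes had a window.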
